A study of Drosophila melanogaster with 24 samples.

Results

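The phototransduction genes of the *Drosophila* eye described here are *Arr1*, *Arr2*, *trp*, *trpl*, *inaC*, *inaD*, *ninaC*, *ninaA*, *rdgC* and *chp*. They were chosen by name, and their probe sets were found through the array's probe-to-gene annotation. That annotation paired 8 of the 10 genes with 9 probe sets, of 11857 tested among 18769 that are not array controls, and all 9 passed the filter on low values. The tested probe sets stand for 9847 genes with a symbol of their own. It paired no probe set with *ninaC* or *ninaA*. *rdgC* has 2 probe sets and is described by the brighter, with the other given where the calls part.

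In the fly photoreceptor, light activates rhodopsin, which acts through a Gq protein and phospholipase C to open the TRP and TRPL cation channels in the microvillar membrane of the rhabdomere. INAD is a scaffold that holds TRP, phospholipase C and the eye protein kinase C (INAC) together. Arrestins end the activity of rhodopsin, and a phosphatase (RDGC) removes its phosphates. These genes are best known from mutants with abnormal electrical responses to light or with degenerating retinas.

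Transcript abundance was measured in whole bodies of virgin flies, in 24 RNA pools of 15 flies, on Affymetrix Drosophila Genome 2.0 arrays. The lines came from a heterogeneous base population and were taken at generation 25. They are 2 lines selected for resistance to alcohol (R1 and R2), 2 selected for sensitivity (S1 and S2) and 2 unselected control lines (C1 and C2). Each line gave 2 pools of males and 2 of females, 3 to 5 days old. All groups, the controls included, were exposed to ethanol vapor before RNA extraction according to the sample labels. The paper describes the arrays without that step. Selection was replicated over lines and not over pools, so p-values from pools measure the spread between pools of flies and not the spread between lines. The eye is a small part of a whole fly, and in such samples fewer photoreceptors and less RNA per photoreceptor cannot be told apart.

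Abundance is given as Signal, a background-corrected intensity per probe set on a linear scale that the authors computed with MAS5. All arrays had been scaled to a common trimmed mean. The median Signal of non-control probe sets lay between 130.9 and 149.8 on the male arrays and between 55.7 and 81.0 on the female arrays. The germline transcripts checked for the label, *osk*, *otu*, *bcd* and *dj*, matched the labelled sex on all 24 arrays. *dj* was at 542 to 4250.0 in the 12 male pools and at most 3.39 in the 12 female pools. Of the 6 listed male germline markers 5 were higher in males, whereas *twe* was higher in females (male minus female -2.51 in mean log2 Signal). The 2 pools of S1 females differed in flight muscle transcripts, with *fln*, which encodes flightin, at 438 and 17847. Between these pools the members differed by -0.34 (*Arr2*) to 0.50 (*trp*) on the log2 scale, replicate 1 minus replicate 2. Precision is limited by the small numbers of pools (2 for a line and sex) and of lines (2 for a selection group).

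All 8 measured genes were more abundant in males than in females. The differences, male minus female in mean log2 Signal over the 6 lines, had adjusted p-values under 0.001 in limma for each of the 8. In the same test 36% of all tested probe sets were higher in males and 42.3% were higher in females. The median difference was 0.83 over the 8 genes and -0.041 over all tested probe sets. No gene had all 12 male pools above all 12 female pools, a separation found for 21.1% of tested probe sets.

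The 2 arrestin genes had the smallest differences between the sexes of the 8. *Arr2*, which encodes the major arrestin of the photoreceptor, had a Signal of 13534 to 19735 in males (median 17236) and 10244 to 18214 in females (median 13692), so the sexes overlapped widely. Its difference was 0.31 ± 0.059 (SE), a 1.24-fold higher Signal, with an adjusted p of 1.16e-04 in limma. *Arr1*, the other visual arrestin gene, ranged over 10825 to 14943 in males (median 13599) and 8426 to 12171 in females (median 9571), with overlap between the highest female and the lowest male pools. The difference was 0.44 ± 0.053 (1.36-fold, adjusted p = 5.33e-07).

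The channel genes had larger differences. *trp*, which encodes the main light-activated calcium channel, had 1927 to 3101 in males (median 2565) and 854 to 2125 in females (median 1422). Its difference was 0.83 ± 0.078 (1.77-fold, adjusted p = 2.37e-08), and the overlap came from single pools of C2 and S1 females. *trpl*, the gene of the second light-activated channel, had 1843 to 3478 in males (median 2381) and 1159 to 2836 in females (median 1583), a difference of 0.60 ± 0.050 (1.51-fold, adjusted p = 4.81e-09). Its highest female pool, from C2, exceeded 9 of the 12 male pools.

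The genes of the signalling complex and of the rhabdomere had the largest differences. *inaD* had 916 to 1511 in males (median 1123) and 415 to 1071 in females (median 597), a difference of 0.88 ± 0.055 (1.84-fold, adjusted p = 6.99e-11). *inaC* had 951 to 1482 in males (median 1259.8) and 487 to 1059 in females (median 697), a difference of 0.86 ± 0.043 (1.81-fold, adjusted p = 3.99e-12). In both genes a C2 female pool was the only one to reach the range of the males. *chp*, which encodes chaoptin, a cell adhesion protein that holds the microvilli of the rhabdomere together, differed by 0.89 ± 0.061 (1.85-fold, adjusted p = 3.21e-10). Its Signal was 2157 to 3348 in males (median 2829) and 818 to 2556 in females (median 1604). *rdgC* had 451 to 768 in males (median 653) and 224 to 522 in females (median 343). The difference was 0.83 ± 0.052 (1.77-fold, adjusted p = 8.58e-11), and the second probe set differed by 0.77 ± 0.096 (adjusted p = 7.81e-07).

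**Figure D1:**
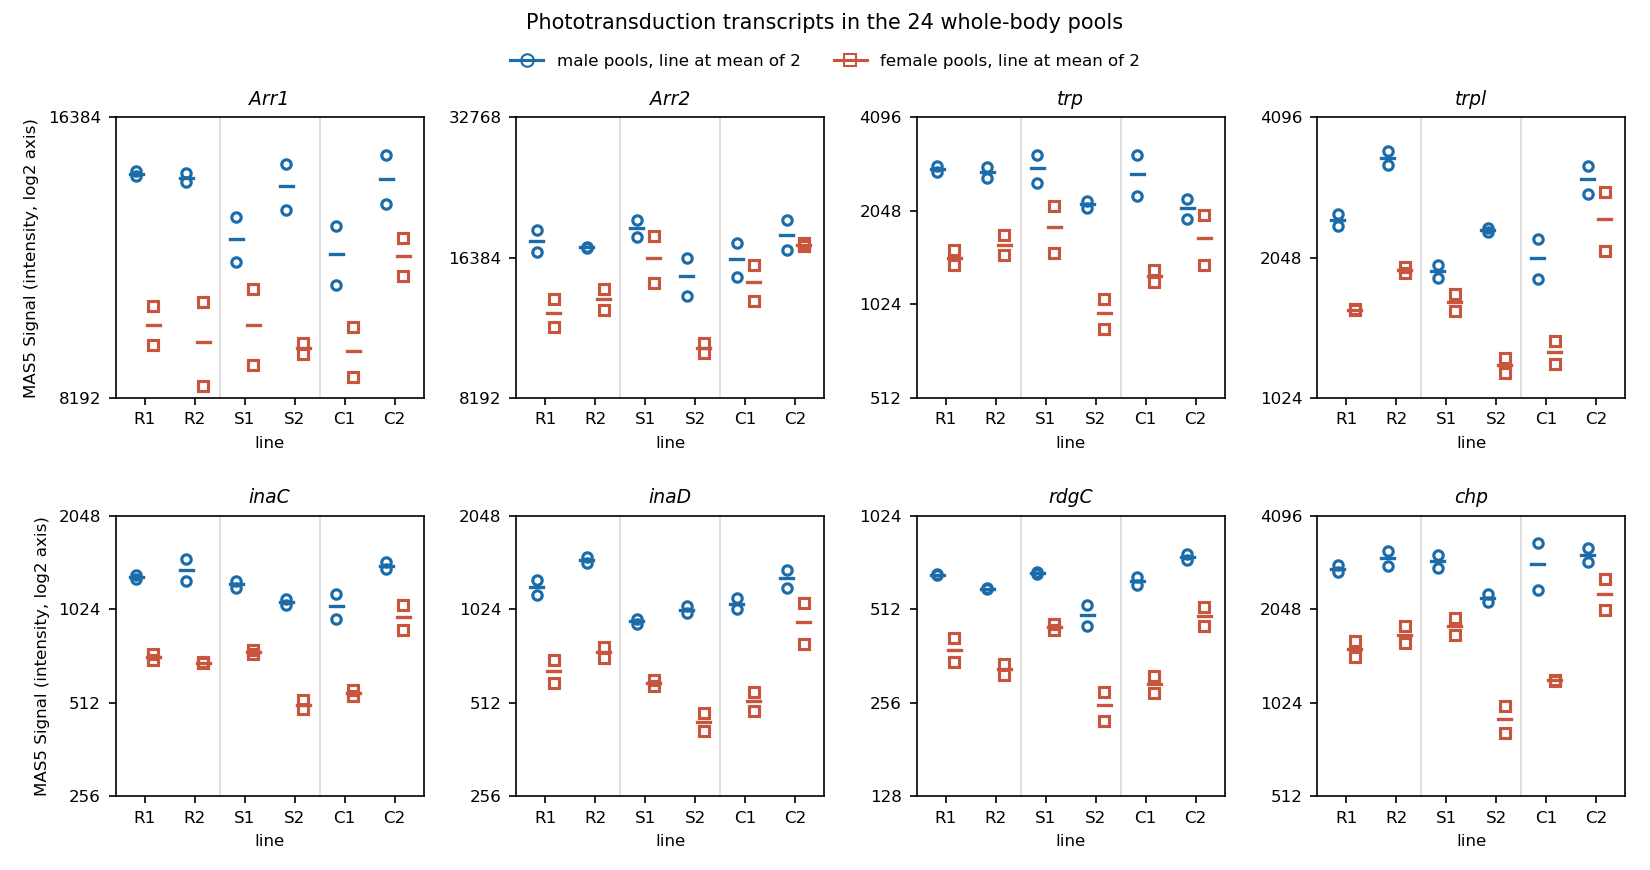
MAS5 Signal of the 8 genes on each array, on a log2 axis, by line, with male pools as circles left of female pools as squares and a short line at the mean of each 2 pools. Males lie above females in the mean of every line for all 8 genes, and S2 females and C2 females mark the low and the high end of the females for most genes, with *inaD* at 473 and 415 in S2 and at 1071 and 788 in C2.

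In every line the mean difference between the sexes was above 0 for all 8 genes, but its size varied. *chp* differed by 0.43 in C2 and 1.30 in S2, *inaD* by 0.48 in C2 and 1.20 in S2, and *trp* by 0.34 in C2 and 1.17 in S2. C2 had the smallest difference in 6 of the 8 genes, with S1 smallest for *trpl* (0.22) and *rdgC* (0.58). No gene passed the line by sex interaction in limma, for which the adjusted p-values were 0.0702 (*trpl*) to 0.553 (*Arr1*), and 4 genes (*trpl*, *chp*, *inaD* and *inaC*) had an unadjusted p under 0.05. The interaction passed for 0.245% of tested probe sets.

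Markers of other head tissues moved in the same direction. Of 12 neuron markers 9 were higher in males and 0 lower, with a median difference of 0.90, and their summed Signal was 14311 to 19758 in male pools and 6866 to 13391 in female pools. All 4 glia markers and all 5 antenna markers were higher in males, with medians of 0.78 and 0.99. In the opposite direction, the 4 tested female germline markers summed to 2203 to 3387 in male pools and 17788 to 23440.0 in female pools. The part of body composition in the differences was not tested. When each array was scaled to the mean of the neuron markers, an alternative added after the data were seen, none of the 8 genes was called higher in males and *Arr1* (-0.44) and *Arr2* (-0.57) were called lower in males. The differences of the 12 markers behind that scale ran from -0.15 (*Csp*) to 2.55 (*brp*). *brp* was also the dimmest of them, with a mean log2 Signal of 5.61, and the scale was not recomputed without it. On that scale the median difference was -0.052 over the 8 genes and -0.92 over all tested probe sets. Of the 11857 tested probe sets, 2069 were called higher in males and 7455 higher in females after that scaling. With quantile normalization over all arrays the directions were those of the deposited scaling, with medians of 0.91 over the 8 genes and -0.22 over all tested probe sets.

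**Figure D2:**
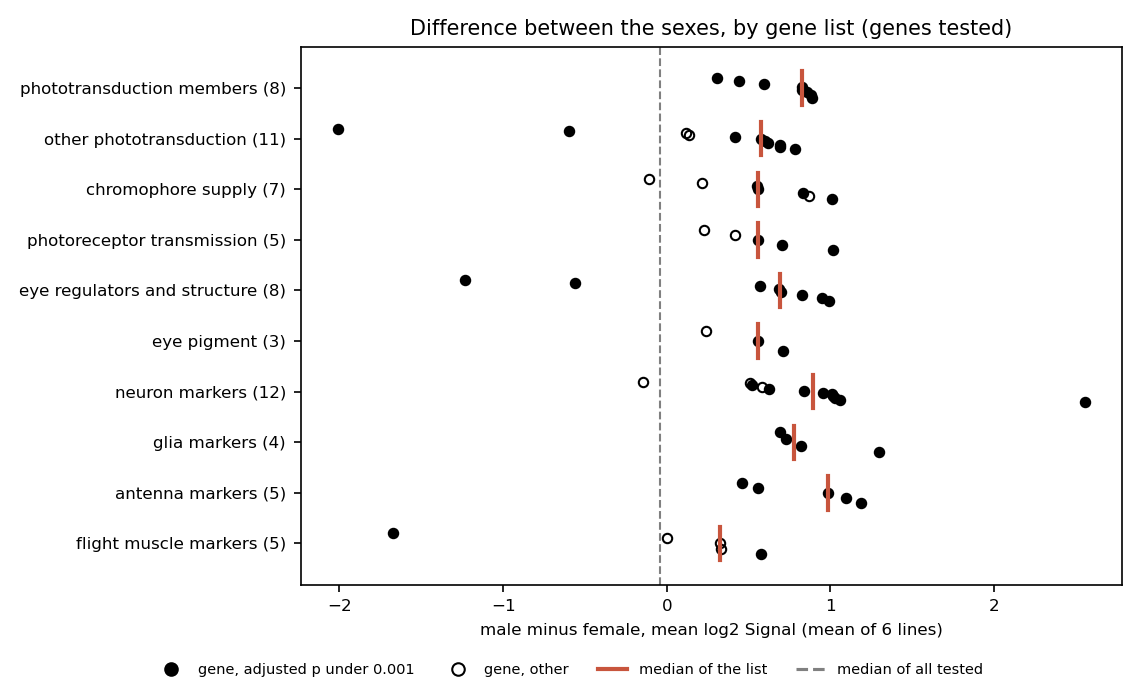
Male minus female difference in mean log2 Signal, averaged over the 6 lines, for each tested gene of 10 lists, with filled points past an adjusted p of 0.001, bars at list medians and a dashed line at the median of all tested probe sets (-0.041). The 8 phototransduction genes lie at 0.31 to 0.89, beside neuron markers with a median of 0.90, and scaling to the neuron markers takes the median of the 8 genes to -0.052.

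Differences among the 6 lines passed an adjusted p of 0.001 for 5 of the 8 genes, against 12.3% of tested probe sets. These were *trpl* (9.99e-06), *inaC* (2.52e-05), *rdgC* (4.77e-05), *inaD* (6.97e-05) and *chp* (9.74e-05), from the moderated F test of limma. *Arr2* (6.95e-03), *trp* (0.0153) and *Arr1* (0.123) did not pass. The second *rdgC* probe set had an adjusted p of 0.0482 and did not pass either. Without line S2, 2 of the 8 genes passed.

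Resistant lines were compared with sensitive lines to ask which transcripts had come to differ between them by generation 25. A contrast was called where the line effect passed and the contrast itself had p under 0.05. By this rule *inaD*, *trpl*, *chp* and *inaC* were higher in the resistant lines and none of the 8 genes was lower, while 5.23% of tested probe sets were called higher and 3.54% lower. The median difference was 0.20 over the 8 genes and 0.027 over all tested probe sets.

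*inaD* had the largest difference. In males its Signal was 1267 and 1138 in R1, 1443 and 1511 in R2, 916 and 953 in S1, 992 and 1044 in S2, 1022 and 1109 in C1, and 1202 and 1372 in C2. In females it was 590.0 and 701 in R1, 712 and 773 in R2, 604 and 578 in S1, 473 and 415 in S2, 482 and 555 in C1, and 1071 and 788 in C2. All 4 resistant male pools were above all 4 sensitive male pools, and in females 1 pool of R1 lay below 1 pool of S1. The resistant minus sensitive difference was 0.44 ± 0.067 (SE), or 1.36-fold, with an adjusted p of 2.51e-04 in limma. It was 0.45 ± 0.095 in males and 0.43 ± 0.095 in females, and 0.24 ± 0.095 between R1 and S1 and 0.64 ± 0.095 between R2 and S2.

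*trpl* was next. In males its Signal was 2535 and 2392 in R1, 3478 and 3239.8 in R2, 1854 and 1974 in S1, 2371 and 2324 in S2, 1843 and 2243 in C1, and 2809 and 3220.0 in C2. In females it was 1587 and 1579 in R1, 1902 and 1957 in R2, 1715 and 1573 in S1, 1159 and 1247 in S2, 1213 and 1355 in C1, and 2836 and 2113 in C2. Resistant and sensitive males did not overlap, whereas in females the R1 and S1 pools did. The difference was 0.38 ± 0.062 (1.30-fold, adjusted p = 5.00e-04), with 0.44 ± 0.087 in males and 0.31 ± 0.087 in females. Between the resistant lines *trpl* was lower in R1 than in R2 by a log2 difference of -0.37 ± 0.087 (adjusted p = 0.0128).

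*chp* and *inaC* had smaller differences that came from line pair 2. In males the Signal of *chp* was 2831 and 2692 in R1, 3155 and 2827 in R2, 2771 and 3062 in S1, 2291 and 2157 in S2, 2363 and 3348 in C1, and 2909 and 3224 in C2. In females it was 1620.0 and 1438 in R1, 1589 and 1802 in R2, 1915 and 1692 in S1, 996 and 818 in S2, 1213 and 1201 in C1, and 2556 and 2032 in C2. Resistant and sensitive pools of *chp* overlapped in both sexes, with S1 at the level of the resistant lines or above it and S2 below. The difference was 0.25 ± 0.075 (1.19-fold, adjusted p = 0.0297), made up of -0.16 ± 0.11 between R1 and S1 and 0.67 ± 0.11 between R2 and S2.

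In males the Signal of *inaC* was 1284 and 1321 in R1, 1261 and 1482 in R2, 1199.5 and 1259 in S1, 1104 and 1059 in S2, 951 and 1143 in C1, and 1375 and 1451 in C2. In females it was 734 and 702 in R1, 692 and 686 in R2, 755 and 733 in S1, 520.4 and 487 in S2, 560.3 and 537 in C1, and 1059 and 878 in C2. Resistant males were all above sensitive males, by the narrow margin between 1261 and 1259, and the females overlapped. The difference was 0.21 ± 0.053 (1.15-fold, adjusted p = 0.0138), with 0.017 ± 0.075 between R1 and S1 and 0.40 ± 0.075 between R2 and S2.

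The size of the contrast differed between the line pairs at an adjusted p of 0.05 for all of the 8 genes except *Arr1*, against 18.4% of tested probe sets, and pair 2 had the larger value in each of the 7.

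The other 4 genes were not called. The differences were 0.19 ± 0.096 for *trp*, 0.10 ± 0.064 for *rdgC*, 0.072 ± 0.065 for *Arr1* and 0.020 ± 0.072 for *Arr2*, with adjusted p-values of 0.195 to 0.892 in limma. After quantile normalization, with the sexes together or apart, *Arr1* (0.14 and 0.12) and *Arr2* (0.080 and 0.085) were called higher in the resistant lines. *trp* averaged 2763 ± 115 (SD, 4 pools) in resistant males and 2481 ± 450.1 in sensitive males, and 1521 ± 146 in resistant females and 1387 ± 561 in sensitive females. Resistant pools of *trp* fell inside the range of the sensitive pools in both sexes. *Arr1* took the narrowest range in resistant males, at 14179 and 14344 in R1 and 14269 and 13968 in R2, against 11467 and 12797 in S1 and 13038 and 14615 in S2, where 1 S2 pool exceeded all 4. In females *Arr1* had 10283 and 9326 in R1, 8426 and 10380.3 in R2, 8878 and 10716 in S1, and 9384 and 9139.8 in S2. The pools of the 4 selected lines were thus intermingled in females. *Arr2* had 13335 and 11618 in R1 females, 12634 and 14049.7 in R2 females, 14439 and 18214 in S1 females, and 10752 and 10244 in S2 females. For *Arr2* the sensitive females therefore lay on both sides of the resistant females, with no overlap.

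Over all tested probe sets, resistant males were all above sensitive males in 6.71% and resistant females above sensitive females in 2.93%. Of the 8 genes *trpl*, *inaC* and *inaD* had that separation in males and 0 had it in females. The contrast did not differ between the sexes for any of the 8 genes at an adjusted p of 0.05 (lowest 0.886), a threshold that 0.422% of tested probe sets passed.

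The calls of *chp* and *inaC* rested on the S2 line. Without S2 *chp* stood at -0.092 and *inaC* at 0.019, whereas *trpl* was still called (0.34) and *inaD* stood at 0.37 with its line effect no longer past the threshold. The differences of *Arr2* (-0.22), *rdgC* (-0.22) and *trp* (-0.13), which were not called, were below 0 without S2. *rdgC* was called as well without replicate 1 of S2 females (0.14), without both pools of S1 females (0.32) and without lines S1 (0.43) or R2 (0.19), and *chp* was not called without R2 (0.19) or in the methods' analysis of variance (0.19). With line as a random block in limma, the contrast was set against the spread between lines. The unadjusted p-values were then 0.0119 for *inaD*, 0.0503 for *trpl*, 0.178 for *inaC* and 0.227 for *chp*, and 1 gene was called. Of the 11857 tested probe sets, 503 were called either way with that block, against 1040 without it. With the mean of each line taken as a single value, none of the 8 genes passed an adjusted p of 0.05 (lowest 0.934) and none had an unadjusted p under 0.05.

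**Figure D3:**
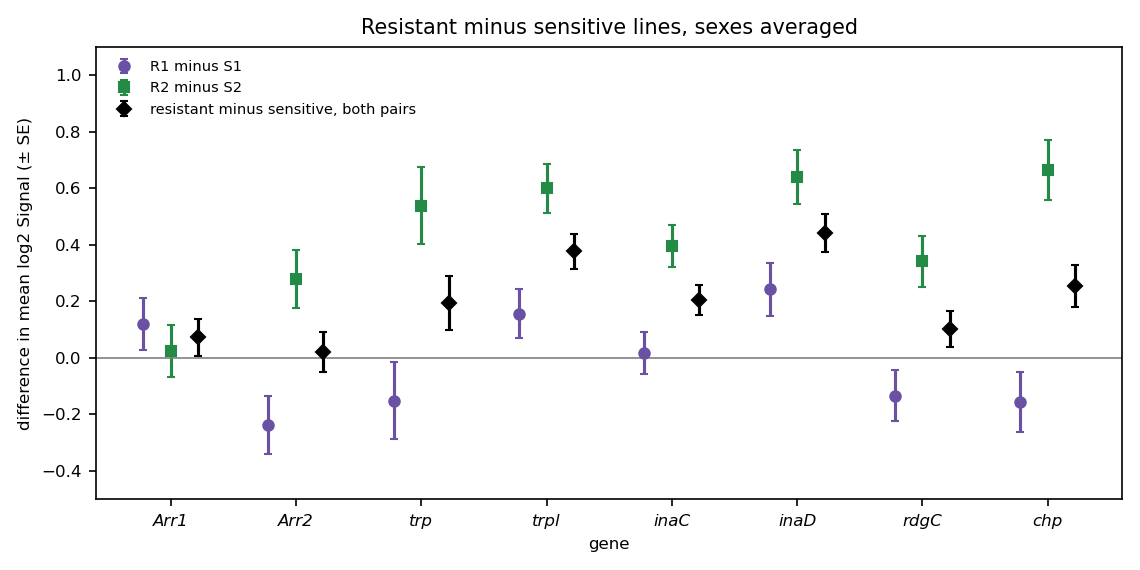
Resistant minus sensitive difference in mean log2 Signal with its SE for the 8 genes, sexes averaged, for R1 minus S1 (circles), R2 minus S2 (squares) and both pairs together (diamonds). The R2 minus S2 differences are above 0 for all 8 genes and reach 0.67 in *chp*, whereas those between R1 and S1 lie at -0.24 to 0.24.

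Against the control lines the sensitive lines were lower in 5 genes, and the resistant lines differed in 0. Sensitive minus control was -0.35 ± 0.067 for *inaD* (adjusted p = 2.42e-03), -0.29 ± 0.075 for *chp* (0.0165), -0.28 ± 0.062 for *trpl* (6.48e-03), -0.22 ± 0.064 for *rdgC* (0.0310) and -0.16 ± 0.053 for *inaC* (0.0567), all from limma and called by the rule above. Among all tested probe sets 5.83% were called lower in this contrast. In *rdgC* the Signal in males was 677 and 663 in S1, 528 and 451 in S2, 612 and 647 in C1, and 737 and 768 in C2. In females *rdgC* had 458 and 438 in S1, 277 and 224 in S2, 312 and 275 in C1, and 522 and 453 in C2, so that the sensitive and control pools overlapped in both sexes. The second *rdgC* probe set differed by -0.33 ± 0.12 and was not called. Without C2 0 genes were called lower in the sensitive lines, without S2 1, and with line as a random block 1, which was *inaD* (unadjusted p = 0.0428).

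Resistant minus control differences were small. They lay at -0.14 (*Arr2*) to 0.15 (*trp*), and 0 of the 8 genes were called in limma, with 0 of the contrast's unadjusted p-values under 0.05 and 7.86% of tested probe sets called either way. In the alternatives only calls lower in the resistant lines were counted, so calls the other way, for instance without C2, are not shown. Without line C1 5 genes were called lower, and 2 with quantile normalization. There was 1 such gene without line R1, without replicate 2 of R1 females, without replicate 2 of C2 females and in the methods' analysis of variance. All 3 contrasts share their lines, so that a low value in the sensitive lines enters both contrasts that use them.

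The 2 lines of a group also differed from each other. Within the control lines 5 genes were lower in C1 than in C2, and 4.01% of tested probe sets were. These were *trpl* at -0.75 ± 0.087 (adjusted p = 3.65e-05), *inaC* at -0.63 ± 0.075 (4.76e-05), *inaD* at -0.55 ± 0.095 (1.24e-03), *chp* at -0.52 ± 0.11 (4.80e-03) and *rdgC* at -0.49 ± 0.090 (2.02e-03). The second *rdgC* probe set differed by -0.034 ± 0.17 between C1 and C2 and was not called. Within the sensitive lines *chp* (0.69 ± 0.11), *rdgC* (0.65 ± 0.090) and *inaC* (0.37 ± 0.075) were higher in S1 than in S2, against 5.41% of tested probe sets. On the second *rdgC* probe set S1 minus S2 was 0.39 ± 0.17 and was not called. *Arr2* and *trp* had differences of 0.49 ± 0.10 and 0.64 ± 0.14 between S1 and S2, at adjusted p-values of 2.38e-03 and 2.52e-03, but were not called because their line effect did not pass. Within the resistant lines *trpl* (-0.37 ± 0.087) and *inaD* (-0.25 ± 0.095) were lower in R1 than in R2, as were 2.71% of tested probe sets. Only 1 of these was called without replicate 2 of R1 males, without replicate 2 of R2 females or without line S2, and without S2 the control lines differed in 2 genes.

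Ordered by mean log2 Signal over both sexes, C2 was the highest line for 7 of the 8 genes and S1 for *trp*. S2 was the lowest for 6 and C1 for *Arr1* and *trpl*. On the second *rdgC* probe set S2 was lowest too, but R1 was the highest line, 0.092 ± 0.17 above C2. Over all tested probe sets C2 was highest in 17.4% and S2 lowest in 27.3%. The difference between the highest and the lowest line was 0.90 for *chp*, 0.79 for *rdgC*, 0.75 for *trpl*, 0.69 for *inaD*, 0.66 for *inaC*, 0.64 for *trp*, 0.52 for *Arr2* and 0.31 for *Arr1*. Most neighbours in these orders did not differ beyond the spread between pools at an adjusted p of 0.05 in limma. The exceptions were C2 over R2 and S1 over C1 for *inaC* (0.27 and 0.34), R2 over R1 for *trpl* (0.37), C1 over S2 for *rdgC* (0.30) and C1 over S2 for *chp* (0.38). *Arr1*, *Arr2*, *trp* and *inaD* had 0 such steps among their 5.

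More genes stood apart in females than in males. Both S2 female pools were below the other 10 female pools for *Arr2*, *trp*, *inaC*, *inaD* and *chp*, a position that 8.99% of tested probe sets shared. Both C2 female pools were above the other 10 for *Arr1*, *trpl*, *inaC*, *inaD* and *chp*, as in 5.41% of tested probe sets. In males S2 was below all others for *rdgC* and *chp* (9.84% of tested probe sets), and C2 above all others for *rdgC* alone (3.63%). The second *rdgC* probe set had neither position in males. Its C2 pools were at 297 and 251, with a C1 pool at 278. Its S2 pools were at 183 and 156, with an S1 pool at 175. The mean of the 8 genes in S2, set against the mean of the 6 lines within a sex, was -0.19 in males and -0.46 in females. In C2 it was 0.12 in males and 0.44 in females. These positions were looked at after the values were seen.

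Neuron markers had the same lowest and highest line in females. Their mean was -0.34 in S2 females and 0.37 in C2 females, and -0.21 in S2 males and 0.048 in C2 males. Their summed Signal was 6866 and 9270.2 in S2 females, against 11532 and 13391 in C2 females, and 0 of the 12 had a line effect past the threshold. The 4 female germline markers summed to 22629 and 22853 in S2 females and 17788 and 18994 in C2 females. Antenna markers were also lowest in S2 females (-0.67) and highest in C2 females (0.46). Glia markers were low in S2 females (-0.35) and high in C2 females (0.30) as well, although their lowest line was R2 (-0.57) and their highest C1 (0.35). With each array scaled to the neuron markers, 0 of the 8 genes had a line effect past the threshold and 0 were called between groups, and resistant minus sensitive was 0.36 for *inaD*, 0.29 for *trpl*, 0.17 for *chp* and 0.12 for *inaC*. The part of head or brain tissue in the differences between lines was otherwise not tested.

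**Figure D4:**
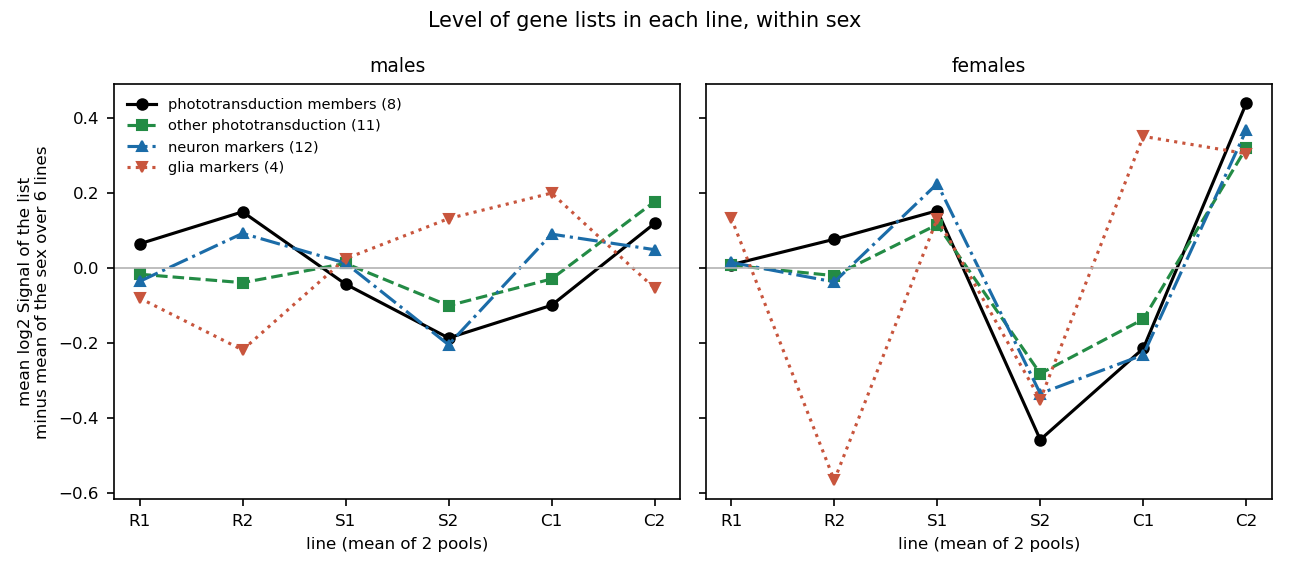
Mean log2 Signal of 4 gene lists in each line minus the mean of the 6 lines, for males (left) and females (right), each point the mean over the genes of the list and 2 pools, with connecting lines to guide the eye only. In females the 8 phototransduction genes (-0.46 in S2, 0.44 in C2) and the 12 neuron markers (-0.34 and 0.37) share their lowest and highest lines. The 4 glia markers are also low in S2 (-0.35) and high in C2 (0.30), with their lowest value in R2 (-0.57) and their highest in C1 (0.35).

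The rest of the cascade was followed in part, in 11 further tested genes, from 26 listed symbols of which 12 had a paired probe set. The 11 hold no rhodopsin gene and no phospholipase C gene, so they do not cover these steps. *Rh4* and *Rh2* had a probe set only through a supplementary list of the study, like *ninaC* below, and were left out of the counts. As a description, resistant minus sensitive was 0.29 for *Rh4* and 0.038 for *Rh2*. *Galphaq*, the G protein subunit that couples rhodopsin to phospholipase C, had a line effect past the threshold and was 0.13 above the sensitive lines in the resistant lines, lower in resistant than in control lines (-0.12) and lower in sensitive than in control lines (-0.24). Its difference was -0.22 between R1 and S1 and 0.47 between R2 and S2. *Gbeta76C*, the eye Gβ subunit, and *rdgB*, a phosphatidylinositol transfer protein of the photoreceptor, were lower than control in both kinds of selected line. The differences were -0.28 and -0.30 for *Gbeta76C* and -0.42 and -0.44 for *rdgB*. Lines of the same selection group differed as well. C1 minus C2 was -0.45 for *Galphaq*, -0.42 for *Gbeta76C* and -0.63 for *rdgB*, and S1 minus S2 was 0.54, 0.53 and 0.64. *laza*, a lipid phosphatase gene, was the fourth with a line effect. It was called between lines of the same selection group, higher in R1 than in R2 (0.49) and lower in C1 than in C2 (-0.31), and not between the selection groups. The other 7 (*rdgA*, *Cds*, *Gprk1*, *inaE*, *rtp*, *Calx* and *stops*) had no line effect past the threshold. Of the 11 genes 7 were higher in males and 2 lower, namely *Gprk1* (-0.60) and *inaE* (-2.01), and the median difference was 0.57.

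Of 7 genes of chromophore supply, 1 had a line effect. *pinta*, which encodes a retinoid-binding protein of the pigment cells, was lower in resistant than in sensitive lines (-0.68) and than in control lines (-0.41), in both line pairs (-0.65 and -0.71), and higher in sensitive than in control lines (0.27). Among 8 regulators and structural genes of the eye, *sev*, the receptor tyrosine kinase gene of the R7 photoreceptor, was lower in resistant than sensitive lines (-0.66). The *sev* difference was -0.37 between R1 and S1 and -0.95 between R2 and S2, and R1 was above R2 by 0.87. The other 7 had no line effect past the threshold. None of 5 genes of photoreceptor transmission and none of 3 eye pigment genes had a line effect at an adjusted p of 0.001 in limma, the lowest being 0.00153 and 0.0152. Of the 5 antenna markers *Obp83b* (0.44) and *Obp28a* (0.28), both odorant-binding protein genes, were called higher in the resistant lines against the sensitive lines. Between R1 and S1 the differences were 0.23 for *Obp83b* and -0.088 for *Obp28a*, and between R2 and S2 they were 0.65 and 0.64. S1 was above S2 in both genes, by 0.69 and 1.01.

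The 8 genes followed each other across arrays to different degrees. Over the 24 arrays, with each sex centred on its mean, the correlation of a gene with the mean of the other 7 was 0.94 for *chp*, 0.93 for *inaC*, 0.84 for *inaD*, 0.79 for *trpl*, 0.78 for *rdgC*, 0.69 for *Arr2*, 0.67 for *trp* and 0.58 for *Arr1*. The genes outside the list with the most similar profile to the mean of the 8 were *CG2269* (r = 0.947), *Galphaq* (0.945), *Strn-Mlck* (0.930), *fru* (0.930), *bt* (0.928), *Glut4EF* (0.921), *zormin* (0.919) and *nwk* (0.917). All come from the same arrays, with their scaling and tissue make-up in common, and the correlations are given as a description. *Strn-Mlck*, *bt* and *zormin* encode proteins of muscle, whereas *fru* and *nwk* are genes of neurons.

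*ninaC*, which encodes a myosin III with a kinase domain, has a probe set through a supplementary list of the study that was drawn up for differences between these lines, so its values are a description only. Its Signal in males was 942 and 886 in R1, 1060.0 and 1094 in R2, 1126 and 1209.5 in S1, 761 and 754 in S2, 882 and 1161 in C1, and 985 and 1067 in C2. In females it was 514 and 539 in R1, 549 and 717 in R2, 897 and 811 in S1, 468 and 376 in S2, 573 and 574 in C1, and 918 and 769.6 in C2. S2 was the lowest line in both sexes. *ninaA*, the gene of a cyclophilin that rhodopsin needs to leave the endoplasmic reticulum, was not analysed here.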

How the data were processed

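The authors hybridized biotinylated cRNA from whole flies to Affymetrix Drosophila Genome 2.0 arrays and deposited an intensity per probe set, the MAS5 Signal, scaled per array. Genome build and aligner do not apply to these values. The 183 control probe sets were left out, and probe sets with Signal of at least 50 on at least 12 arrays were tested, in place of the authors' detection calls. Of non-control probe sets 13647 were paired with 1 symbol, 402 with several and 4720 with none. Signal was floored at 1 (325 of 284568 values), log2 transformed and fitted in R 4.3.3 with limma 3.58.1 (lmFit, eBayes with trend), with 1 mean for each of 12 groups of line and sex. Moderated F tests gave line and interaction effects, and a moderated t test of the male minus female contrast gave the sex effect. These were Benjamini-Hochberg adjusted over all 11857 probe sets at 0.001. Contrasts between lines followed the 2 steps of the study's methods, p under 0.05 for the contrast after a passing line effect or interaction. The fit was tested on simulated data. Named genes were all members, called genes of the other lists and the 8 most correlated genes. Members and lists were chosen with earlier results of these data known. Summaries used Python 3.11.15. In all 41 alternatives were run, of which 7 were added after the data were seen.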

Additional observations from a re-analysis of the deposited data

Results flagged for a closer look

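The resistant minus sensitive difference was not the same in the line pairs R1 and S1 and R2 and S2 for 7 of the 8 genes, at an adjusted p of 0.05 for the difference of the contrasts in limma. Pair 1 minus pair 2 was -0.82 for *chp* (adjusted p = 1.06e-03), -0.69 for *trp* (0.0189), -0.51 for *Arr2* (0.0202), -0.47 for *rdgC* (0.0155), -0.44 for *trpl* (0.0187), -0.40 for *inaD* (0.0491) and -0.38 for *inaC* (0.0198). The same threshold was passed by 18.4% of all tested probe sets. Within pair 1 the sensitive line was above the resistant line for *Arr2* (-0.24), *chp* (-0.16), *trp* (-0.15) and *rdgC* (-0.13), and within pair 2 all 7 were higher in the resistant line. In the paper each replicate culture of the base population gave rise to a resistant and a sensitive line, and their divergence was followed within replicates. The number of a line is taken here as that of its replicate. *Arr1* was not among them, with 0.12 in pair 1 and 0.023 in pair 2. No array stood far from the other 3 in any of 54 groups of 4. Each group held pools of 2 lines, and differences between lines widen its range. The rate of 5% for values of a single sample therefore does not apply, and a deviant pool could be missed.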

How the results depend on the processing

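Of 41 alternatives 24 left out 1 array each, and there the counts over the 8 genes kept or nearly kept their size. Most counts moved further in some of the other 17. Calls were counted where higher in males, in resistant against sensitive lines or in S1 against S2. Against control, and for C1 minus C2, only lower values were counted. R1 minus R2 was counted both ways. Leaving out 1 array at a time gave 8 genes for the sex effect, 5 for the line effect, 0 for the interaction, 4 to 5 for resistant minus sensitive, 0 to 1 for resistant minus control, 5 for sensitive minus control, 1 to 2 for R1 minus R2, 3 for S1 minus S2 and 5 for C1 minus C2. Replicate numbers did not pair the samples, since correlations of deviations between groups were -0.15 to 0.18 with 4 of 66 over 0.1, and with a replicate block resistant minus sensitive kept 4 calls and no other call changed. Resistant minus control, counted only where lower in the resistant lines, gave 2 calls under both quantile normalizations. It gave 1 under the methods' analysis of variance and without R1, and 5 without C1. Resistant minus sensitive gave 6 calls under both quantile normalizations, with *Arr1* and *Arr2* added, 3 under the methods' analysis of variance, 1 with line as a random block and without S2, and 0 with line means and after scaling to the neuron markers. Sensitive minus control gave 7 under both quantile normalizations, 4 under the methods' analysis of variance, 1 with line as a random block and without S2, and 0 with line means, after neuron scaling and without C2. The line effect gave 7 genes under both quantile normalizations, 4 under the methods' analysis of variance, 2 without S2 and 0 after scaling to neuron markers. R1 minus R2 gave 1 without S2, 0 where R1 or R2 was left out and 0 after neuron scaling, S1 minus S2 gave 0 where S1 or S2 was left out and after neuron scaling, and C1 minus C2 gave 2 without S2, and 0 where C1 or C2 was left out and after neuron scaling. Contrasts within a pair need both lines, so those zeros follow from construction. Neuron scaling left 0 genes higher in males and turned *Arr1* (-0.44), *Arr2* (-0.57), *trp* (-0.052), *trpl* (-0.28), *inaC* (-0.020) and *rdgC* (-0.053), and leaving out S2 turned *chp* for resistant minus sensitive (-0.092) and 3 genes that had not been called, *Arr2* (-0.22), *rdgC* (-0.22) and *trp* (-0.13). The cause of these changes was not tested.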
